A study of Mus musculus with 68 samples.

Results

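Epor, the gene of the erythropoietin receptor, is 1 of the 24059 gene symbols counted in sorted erythroid cells of mouse bone marrow, and its row was read in each of 68 libraries. Epor was chosen on its measured levels in these same libraries, so those levels and differences between groups are given as descriptions with no test. The stage series held 38 libraries labelled with BFU-E and CFU-E, the burst-forming and colony-forming erythroid progenitors, and ERY-I to ERY-VI. The labels pair ERY-I with proerythroblasts, ERY-II with basophilic, ERY-III with polychromatic and ERY-IV with orthochromatic erythroblasts, ERY-V with reticulocytes and ERY-VI with red cells. The knockout series held 30 libraries, 3 in each of 10 groups, labelled WT or GS-KO. Their gates were the 2 progenitor gates, and ERY-I-II, then ERY-III-VI, and last ERY-V-VI. The source name of the ERY-III-VI libraries is PolyE/OrthoE, the cells of ERY-III and ERY-IV alone, so the labels leave unsettled whether that gate also took in ERY-V and ERY-VI cells and so overlapped with ERY-V-VI. GS, an abbreviation left unexplained in the labels, is read here as glutamine synthetase, the product of Glul, an enzyme that joins ammonia to glutamate. Strain, age, treatment and the alleles of WT and GS-KO mice, the driver of any recombinase and the cells in which it acts are not given here by the labels.

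Erythropoietin is made mainly by the kidney and binds pairs of its receptor on erythroid progenitors. The receptor has no kinase of its own and works through JAK2, bound to its inner tail, which phosphorylates STAT5 and other relays that keep the cells alive and dividing. Epor is known as a target of GATA1, and dependence on the hormone is greatest from the CFU-E to the early erythroblast.

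In the GENCODE M21 annotation of GRCm38 (mm10), Epor lies at chr9:21958897-21963506 on the minus strand. Its longer coding transcript has 8 exons and 1761 exonic bases. The 250 bases upstream of the RefSeq start (GRCm38.p6, chr9:21963577-21963826, minus strand) are shown because GATA1 is background knowledge for this gene and Gata1 was measured in the same libraries. Capitals mark a match to AGATAA, the letters of a GATA motif, on the opposite strand (TTATCT) and a match to the GC-box letters GGGCGG, also on the opposite strand (CCGCCC).
Epor: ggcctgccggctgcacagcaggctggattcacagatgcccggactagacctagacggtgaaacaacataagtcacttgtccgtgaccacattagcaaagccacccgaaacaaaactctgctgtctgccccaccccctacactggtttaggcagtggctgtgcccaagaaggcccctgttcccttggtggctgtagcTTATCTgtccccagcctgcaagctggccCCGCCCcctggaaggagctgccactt
The GATA match lies 54 to 49 bases before the start and the GC-box match 26 to 21 bases before it. Promoter windows were searched on both strands for AGATAA. The letters TGATAA were taken as a match on both strands too. The same held for a window with the letters AGATAG on either strand, and the last form counted in the search was TGATAG. At least 1 of these 4 forms was present in 26.5% of 32851 windows of this length, and the GC-box letters on either strand were in 32.7%. The E-box letters CANNTG occurred at 2 places in the Epor window and in 66.2% of windows. The letters CCACACCC, a form bound by KLF1, were not in this window and were in 3.20% of windows. No other form was searched for KLF1, so this does not show that the window lacks a site for it.

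The stage libraries held 1630863 to 11472763 counts in total, of which 0 to 1070 were Epor. The knockout libraries held 3131142 to 15806844 counts, of which 225 to 1809 were Epor. Levels are given in counts per 1000000 (CPM) of the library total. Globin genes took up to 71.1% of the counts of an ERY-VI library, so levels per 1000000 non-globin counts are given as well. The stage series mixed 12 libraries with Y-linked transcripts and 26 with Xist, made from the inactive X in female cells. All 3 BFU-E libraries had Y-linked transcripts, and all libraries of ERY-II, ERY-III, ERY-IV and ERY-VI had Xist. Only CFU-E, ERY-I and ERY-V held both sets, so differences between stages and between sets cannot be fully told apart. The first 3 ERY-I libraries, all with Y-linked transcripts, stood apart. Their summed CPM of 8 neutrophil markers was 12563 to 12905, against 0.409 to 1191 in the other 4. The 4 erythroid markers, band 3 (Slc4a1), Alas2, Rhag and Klf1, were all detected in every group, and their summed CPM was 252 to 297 in BFU-E and 32419 to 45813 in ERY-V.

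Across the stage series Epor was present from the earliest progenitor, was highest at ERY-III and was nearly absent at ERY-VI. The 3 BFU-E libraries had 78.4, 63.9 and 74.3 CPM, a mean of 72.2 ± 7.47 (SD, n = 3). The 5 CFU-E libraries had 86.2, 93.7, 97.7, 90.1 and 111.6 CPM, a mean of 95.9 ± 9.78 (SD, n = 5). All 5 CFU-E libraries were above all 3 BFU-E libraries. The 7 ERY-I libraries ran from 85.3 to 161 CPM with a median of 123 and a mean of 120 ± 30.6 (SD, n = 7), and overlapped with CFU-E.

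The later stages were wider. The 4 ERY-II libraries had 132.6, 130.0, 160.7 and 75 CPM (mean 125 ± 35.9, SD, n = 4). The 4 ERY-III libraries had 192.4, 192.3, 142.6 and 134.2 CPM (mean 165 ± 31.4, SD, n = 4). The 4 ERY-IV libraries had 132.8, 129.0, 66.0 and 71.3 CPM (mean 99.8 ± 36.0, SD, n = 4), all below the 4 ERY-III libraries. At ERY-V the 7 libraries ran from 8.76 to 63.4 CPM with a median of 42.1 (mean 41.1 ± 21.8, SD, n = 7). The 4 ERY-VI libraries had 0, 0, 5 and 11 Epor counts, or 0, 0, 2.80 and 6.74 CPM (mean 2.39 ± 3.19, SD, n = 4). The 2 counts of 0 allow up to 0.883 and 1.42 CPM at a floor of 3 counts, which covers counting error only.

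Ordered by mean CPM, the stages ran ERY-III, ERY-II, ERY-I, ERY-IV, CFU-E, BFU-E, ERY-V and ERY-VI. Among libraries with Xist alone the mean of ERY-I, 142 ± 15.6 CPM, was above that of ERY-II, 125 ± 35.9 CPM (SD, n = 4 each). The libraries of these stages overlapped. ERY-III stood 40.8 CPM above ERY-II against a pooled SD of 33.7, with overlapping libraries. The steps from ERY-II to ERY-I, from ERY-I to ERY-IV and from ERY-IV to CFU-E were each within the pooled SD. CFU-E over BFU-E, BFU-E over ERY-V and ERY-V over ERY-VI each exceeded it, with no overlap. In bulk libraries fewer cells of a type and less RNA per cell cannot be told apart.

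**Figure D1:**
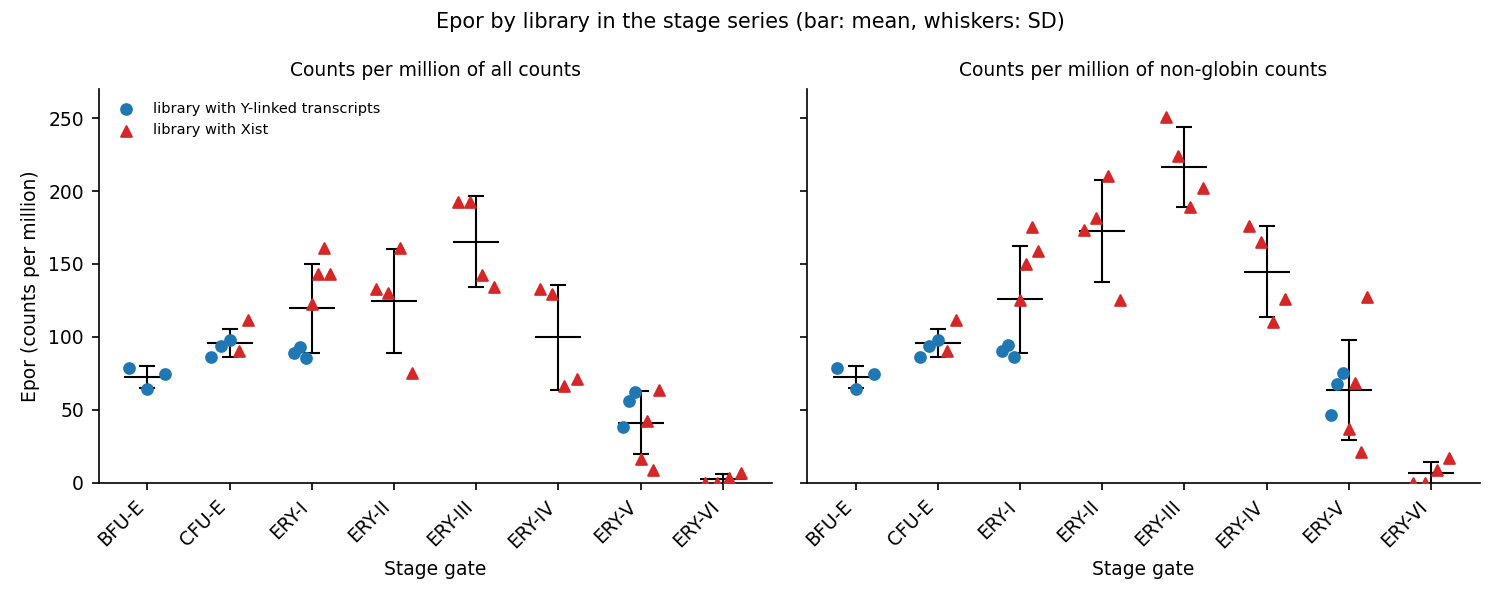
Epor by library in the 8 stage gates, in CPM of all counts (left) and of non-globin counts (right). Points are libraries, coloured by the presence of Y-linked transcripts or Xist; bars are means and whiskers are SD. ERY-III has the highest mean on both scales, 165 and 217, and ERY-VI the lowest.

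Leaving the globin counts out of the total raised the later stages most. ERY-III was then 217 ± 27.2, ERY-II 173 ± 35.2, ERY-IV 144 ± 31.2 and ERY-I 126 ± 36.5 CPM of non-globin counts (SD, n = 4, 4, 4 and 7). CFU-E and BFU-E stayed at 95.9 and 72.2, because globin reads were below 0.05% of their counts. ERY-V was 63.2 ± 34.3 (SD, n = 7) and no longer stood below BFU-E by more than the pooled SD of 29.9. ERY-VI was 6.36 ± 8.05 (SD, n = 4).

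Within ERY-I the libraries differed by set. The 3 with Y-linked transcripts had 89.2, 93.2 and 85.3 CPM and the 4 with Xist had 122.6, 143.3, 160.9 and 142.9 CPM, with no overlap. The first 3 are the libraries with the high neutrophil markers, and the part of those markers in the lower level was not tested. On the same scale Epor was 92.5 ± 5.83 CPM in the 3 CFU-E libraries with Y-linked transcripts and 101 ± 15.2 CPM in the 2 with Xist (SD).

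On the scale of edgeR's fit, which sets each library against its other genes (TMM scaling), Epor was higher at each step up to ERY-III. The log2 fold changes (± SE) were 0.55 ± 0.14 for CFU-E against BFU-E, 0.75 ± 0.26 for ERY-I against CFU-E, 1.33 ± 0.28 for ERY-II against ERY-I and 0.25 ± 0.14 for ERY-III against ERY-II. They were -0.19 ± 0.16 for ERY-IV against ERY-III, -0.43 ± 0.34 for ERY-V against ERY-IV and -2.59 ± 0.87 for ERY-VI against ERY-V. Neighbouring comparisons share a stage and are not independent.

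The ERY-I and ERY-II values depend on the libraries and on the scale. For ERY-I against CFU-E the log2 fold change was 0.06 among libraries with Y-linked transcripts, 0.95 among those with Xist and 0.38 in a fit blocked on replicate number. For ERY-II against ERY-I the log2 fold change was 1.33 by TMM, and 1.003 by TMM among libraries with Xist alone. By library totals it was 0.06, beside a median of all genes of -1.68 against -0.35 by TMM. Set against that median, Epor stood 1.68 higher by TMM and 1.73 higher by library totals. At ERY-II against ERY-I 89.7% of 10327 genes tested had a lower log2 fold change than Epor, and at ERY-VI against ERY-V 11% of 5030 did.

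**Figure D2:**
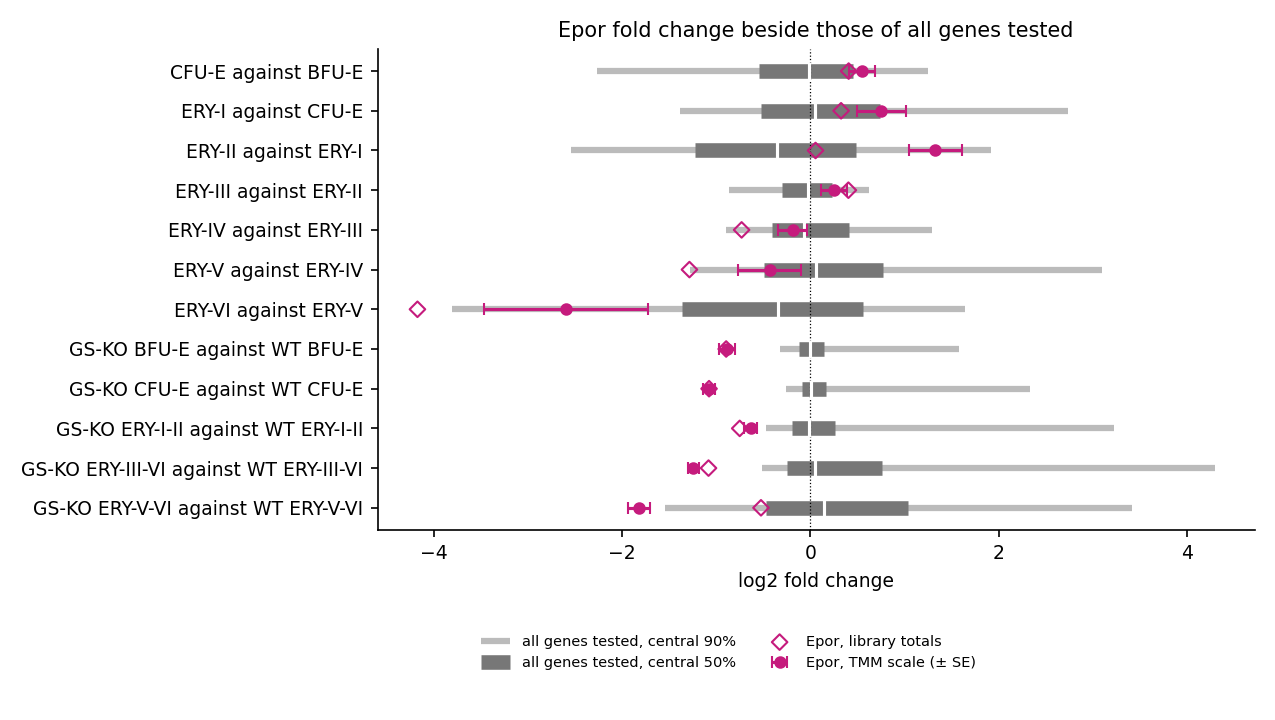
Log2 fold change of Epor in the 12 comparisons (filled points, TMM scale, whiskers SE; open diamonds, library totals) beside all genes tested (TMM scale; thin bars central 90%, thick bars central 50%, white mark median). In the 5 GS-KO comparisons the filled point lies below the central 90% of genes, and ERY-II against ERY-I shows one of the widest gaps between the scales.

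Per kilobase of exon, the scale that allows comparison between genes, Epor ranked 1351st of 22748 genes at BFU-E, 391st at ERY-III and 2088th at ERY-VI. The ERY-VI libraries had a count for only 5102 to 7455 genes and held 0 to 11 Epor counts, so the last rank is rough. Jak2, the kinase that the receptor needs, had 45.3 CPM per kilobase at BFU-E against 36.3 for Epor, and 33.8 against 83.1 at ERY-III. Stat5a and Stat5b, the main signal-carrying factors, were at 31.2 and 50.9 CPM per kilobase at BFU-E but 0.164 and 1.88 at ERY-III. The level of Epor per kilobase was thus below that of Jak2 at BFU-E and above it at ERY-III, while both Stat5 genes were far below Epor at ERY-III.

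The relays of the pathway and its targets were counted in a list of 53 genes other than Epor, split into ligand, receptor complex, relay, brake and target. A gene was called where edgeR's quasi-likelihood test gave an adjusted p (Benjamini-Hochberg over all genes tested) below 0.05. Epo itself, the hormone's gene, passed the filter on low counts in no comparison, nor did the feedback inhibitors Socs1 and Socs2. In CFU-E against BFU-E 4 of 44 tested members rose and 16 fell, beside 18.2% and 19.1% of all 10807 genes. The median log2 fold change of the list was -0.39, and that of all genes -0.01. Tfrc, the transferrin receptor that brings in iron, rose by 2.28 ± 0.23 and was the largest rise among the targets, while the relay Pik3cd fell by 2.29 ± 0.34 and the adaptor Dok2, a brake, fell by 4.87 ± 0.74 (log2, SE).

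From CFU-E to ERY-I 20 of 44 tested members rose and 4 fell, beside 25.4% and 20.9% of all 10460 genes, with a median of 0.76 against 0.05. By library totals 12 rose and 4 fell. Cish, a feedback inhibitor switched on by STAT5, rose by 5.77 ± 0.97, Pim1, a survival kinase, by 3.38 ± 0.34, and Bcl2l1, the survival factor Bcl-xL, by 3.13 ± 0.53 (log2, SE). Fam132b, the gene of erythroferrone, rose by 2.93 ± 0.95 and Osm, a cytokine gene induced by STAT5, by 1.25 ± 0.47. Jak2 rose by 0.79 ± 0.20, and the largest rises among the relays and targets were Lyn, a Src-family kinase (2.16 ± 0.83), and Trib3, a pseudokinase (4.64 ± 1.21). Lyn is also expressed by myeloid cells, and Osm ran from 1.20 to 8.42 CPM over the ERY-I libraries. The part of the cells behind the neutrophil markers of 3 ERY-I libraries in the rises of Lyn, Osm and the other members was not tested. Stat5a fell by 1.55 ± 0.29, Stat5b by 0.63 ± 0.24, Tfr2, a partner of the receptor, by 0.93 ± 0.10, and Gdf3, the largest fall among the targets, by 1.53 ± 0.31.

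Cish, counted in the list among the brakes, was spread unevenly. It had 0.231 ± 0.219 CPM at CFU-E (SD, n = 5), 10.1 ± 9.39 at ERY-I (SD, n = 7) and 31.1 ± 21.5 at ERY-II (SD, n = 4). Bcl2l1 had 24 ± 17.4 CPM at CFU-E, 159 ± 52.3 at ERY-I, 889 ± 263 at ERY-II and 2634 ± 782 at ERY-V (SD), the stage at which Epor was at 41.1 CPM. Highest Epor at ERY-III and highest Bcl2l1 at ERY-V thus fell at different stages.

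From ERY-I to ERY-II 12 of 47 tested members rose and 9 fell, beside 20.2% and 25.1% of all 10327 genes, with a median of -0.51 against -0.35. By library totals 4 rose and 26 fell. Bcl2l1 rose by 3.94 ± 0.43, Cish by 3.0 ± 0.80 and Pim1 by 2.74 ± 0.40. Jak2 rose by 0.87 ± 0.16 by TMM, while its CPM was lower at ERY-II (158 ± 49.3, SD, n = 4) than at ERY-I (214 ± 33.1, SD, n = 7). The regulatory subunit Pik3r1 rose by 1.88 ± 0.16, the largest rise among the relays. Stat5a fell by 2.89 ± 0.69, Stat5b by 2.05 ± 0.43, Tfr2 by 0.95 ± 0.15, Osm by 2.25 ± 0.85 and Gdf3 by 3.50 ± 0.82 (log2, SE). Stat5a went from 154 ± 39.5 CPM at CFU-E to 42.6 ± 20.3 at ERY-I and 2.5 ± 2.49 at ERY-II (SD).

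At ERY-III, where Epor was highest, none of 39 tested members differed from ERY-II by edgeR, beside 0.185% of all 7574 genes higher and 0% lower. The log2 fold changes had a median of -0.15 against -0.02 for all genes. At an unadjusted p below 0.05 the count was 2, by DESeq2 with adjusted p it was 1, and with the replicate number as a block in edgeR it was 6. From ERY-III to ERY-IV 6 of 37 rose and 1 fell, beside 10.3% and 3.29% of all 7238 genes, with a median of 0.07 against -0.07; by library totals 2 rose and 1 fell. Bcl2l1 rose by 1.85 ± 0.43, Pim1 by 1.73 ± 0.40 and Pik3r1 by 1.47 ± 0.19, while the adaptor Shc1 fell by 0.70 ± 0.20.

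From ERY-IV to ERY-V 3 of 39 rose and 0 fell, beside 6.49% and 2.33% of all 6990 genes, with a median of 0.17 against 0.06. By library totals 1 rose and 1 fell. The 3 were Csf2rb, the shared beta chain of cytokine receptors (4.88 ± 1.24), Ptpn6, a phosphatase that turns the receptor off (3.62 ± 1.06), and Bcl2l1 (1.88 ± 0.39). Neutrophil markers summed to 2500.0 to 3192 CPM in 4 of the 7 ERY-V libraries and to at most 178.5 CPM in ERY-IV, and their part in Csf2rb and Ptpn6, genes of myeloid cells, was not tested. From ERY-V to ERY-VI 0 of 33 rose and 2 fell, beside 3.32% and 4.51% of all 5030 genes, with a median of -0.48 against -0.34. Tfr2 fell by 6.54 ± 1.77 and Pik3r1 by 2.22 ± 0.35, and by library totals 17 fell and 0 rose.

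The 7 erythroid factors Gata1, Sp1, Tal1, Klf1, Ldb1, Lmo2 and Zfpm1, counted apart, moved most at ERY-II. There 6 of 7 rose by TMM, beside 20.2% of all genes (median 1.09 against -0.35), while the mean CPM of Gata1, Sp1 and Zfpm1 was lower at ERY-II than at ERY-I. Lmo2 rose by 1.63 ± 0.23, Tal1 by 1.6 ± 0.28 and Klf1, an erythroid zinc-finger factor, by 1.33 ± 0.43, and Ldb1 fell by 1.08 ± 0.13. Gata1 rose by 0.97 ± 0.27 by TMM but had 191 ± 41.3 CPM at ERY-II (SD, n = 4) against 241 ± 56.6 at ERY-I (SD, n = 7). At CFU-E only Ldb1 was called (a fall of 0.57 ± 0.10), and at ERY-I 3 of 7 rose, beside 25.4% of all genes, Zfpm1 most (1.35 ± 0.23), and Ldb1 fell by 0.49 ± 0.11. At ERY-III 0 of 7 were called by edgeR, 1 having an unadjusted p below 0.05. At ERY-IV Lmo2 rose by 0.99 ± 0.19 and Ldb1 fell by 1.03 ± 0.27. At ERY-V Klf1 fell by 1.52 ± 0.33 and Tal1 by 0.90 ± 0.22, and at ERY-VI Tal1 fell by 1.68 ± 0.39. Klf1 had its highest mean, 861 ± 101 CPM (SD, n = 4), at ERY-III, as Epor did, and Gata1 had 226 ± 33.4 CPM there (SD, n = 4).

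In GS-KO libraries Glul, read first as the check of the labels, was lower in every gate. It had 120.9, 125.5 and 120.0 CPM in WT BFU-E against 96.1, 99.7 and 100.7 in GS-KO BFU-E, 80.9% of WT. The GS-KO mean was 41.9% of WT at CFU-E, 13.5% at ERY-I-II, 12.1% at ERY-III-VI and 9.17% at ERY-V-VI. The groups did not overlap in any gate, and the shortfall was small at BFU-E and large from ERY-I-II on.

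Epor was lower in GS-KO than in WT libraries in all 5 gates, with no overlap of the 3 against 3 libraries in any. At BFU-E the WT libraries had 59.3, 56.5 and 57.6 CPM and the GS-KO libraries 31.0, 30.3 and 31.9. At CFU-E WT had 86.9, 91.2 and 78.3 CPM and GS-KO 42.7, 39.0 and 40.4. The GS-KO mean was 53.7% of the WT mean at BFU-E and 47.6% at CFU-E, beside 80.9% and 41.9% for Glul.

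At ERY-I-II WT had 117.8, 123.9 and 127.2 CPM and GS-KO 80.9, 67.9 and 71.1, 59.6% of the WT mean. At ERY-III-VI WT had 188.6, 192.0 and 169.9 CPM and GS-KO 89.1, 80.3 and 90.9, 47.3% of WT. At ERY-V-VI WT had 98.6, 116.9 and 92.4 CPM and GS-KO 76.5, 69.1 and 67.8, 69.3% of WT. Without globin counts the 5 shares were 53.8%, 47.6%, 60.6%, 47.8% and 60.3%, so that the last gate moved most.

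**Figure D3:**
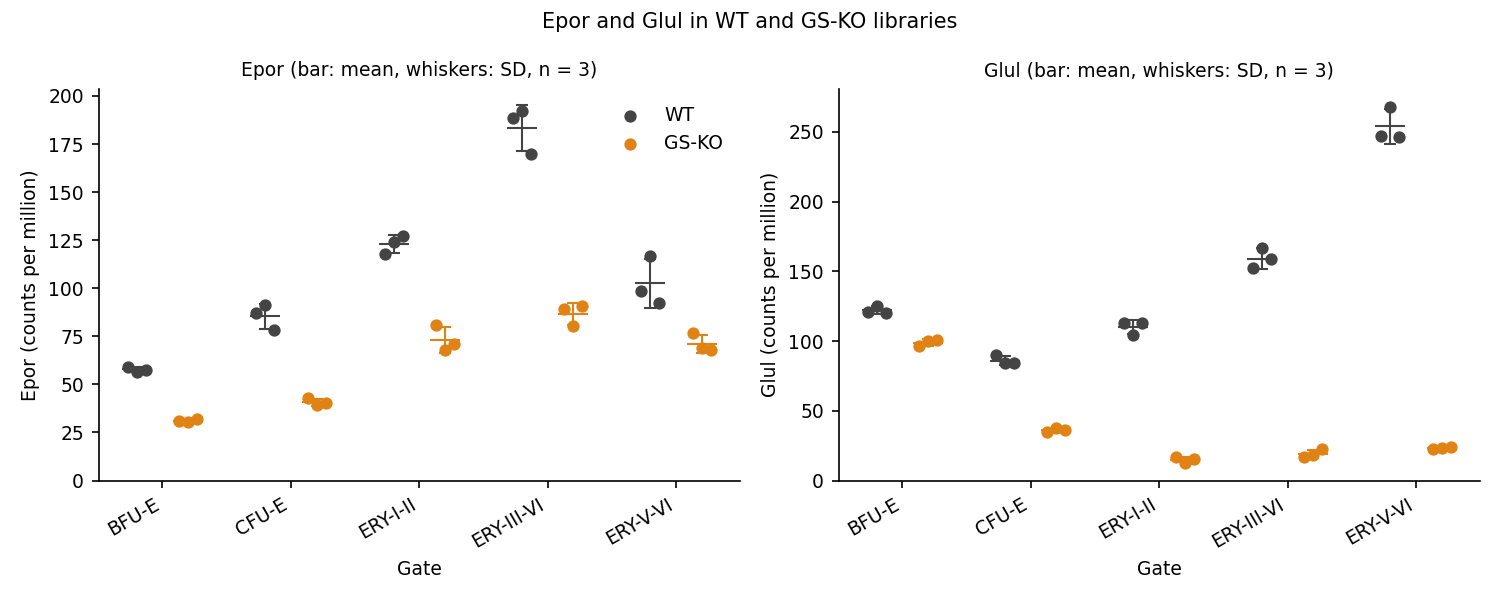
Epor (left) and Glul (right) in CPM in WT and GS-KO libraries of the 5 gates; points are libraries, bars means and whiskers SD (n = 3). Epor is lower in GS-KO in every gate, at 47.3% (ERY-III-VI) to 69.3% (ERY-V-VI) of the WT mean CPM, while Glul goes from 80.9% at BFU-E to 9.17% at ERY-V-VI.

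Ordered by mean CPM, the gates ran the same way in WT and GS-KO. In WT the means ran ERY-III-VI (184 ± 11.9 CPM), ERY-I-II (123 ± 4.79), ERY-V-VI (103 ± 12.7), CFU-E (85.5 ± 6.56) and BFU-E (57.8 ± 1.40), and each neighbour differed by more than the pooled SD. In GS-KO they ran ERY-III-VI (86.8 ± 5.67 CPM), ERY-I-II (73.3 ± 6.76), ERY-V-VI (71.1 ± 4.73), CFU-E (40.7 ± 1.86) and BFU-E (31.1 ± 0.819), all SD with n = 3. ERY-I-II and ERY-V-VI did not differ beyond the pooled SD of 5.83 CPM in GS-KO. Without globin counts they did not in WT either. There the difference was 3.13 against a pooled SD of 11.9 in WT, and 1.61 against 6.12 in GS-KO. The mean at ERY-III-VI was 149% of that at ERY-I-II in WT and 118% in GS-KO; whether these steps differ was not tested.

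The log2 fold changes of Epor for GS-KO against WT (± SE) were -0.88 ± 0.08 at BFU-E, -1.08 ± 0.06 at CFU-E, -0.63 ± 0.07 at ERY-I-II, -1.24 ± 0.06 at ERY-III-VI and -1.82 ± 0.12 at ERY-V-VI. In the same order 0.449%, 0.111%, 2.09%, 0.190% and 2.77% of the genes tested had a lower value. At CFU-E these were 12 of 10859 genes and at ERY-III-VI 19 of 9981. By library totals the value at ERY-V-VI was -0.52, beside a median of all genes of 1.44 against 0.15 by TMM. The size there thus differs between TMM and library totals, while the sign is the same on both. Per 1000 erythroid marker reads, as given below, Epor at ERY-V-VI was higher in GS-KO (3.16) than in WT (2.42).

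Of 8913 genes tested in all 5 gates, 30 besides Epor were called lower in all 5 and 665 were called higher in all 5. Besides Epor, only Tspo2, a gene of the translocator family expressed in erythroid cells, was at or below -0.63 in every gate, the value that Epor itself sets. Tspo2 was picked after its values were seen, and its log2 fold changes were -1.90, -0.64, -0.92, -1.86 and -3.33.

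The GS-KO libraries also held more RNA of myeloid genes. The 8 neutrophil markers, all detected there, summed to 26.5 to 35.8 CPM in WT and 6666 to 6729 CPM in GS-KO at BFU-E, and to 24.5 to 28.4 and 4098 to 4166 CPM at CFU-E. At ERY-I-II the sums were 102 to 107 and 5846 to 5936, at ERY-III-VI 237 to 243 and 9367 to 9435, and at ERY-V-VI 582 to 609 and 12591 to 12748 CPM. The 9 macrophage markers went from 8.57 to 9.06 to 399 to 411 CPM at BFU-E and from 57.5 to 73.8 to 802 to 864 CPM at ERY-V-VI, where all 9 were detected in both. The 7 B lineage markers summed to at most 4.21 CPM in WT and at most 52.2 CPM in GS-KO libraries. Megakaryocyte markers summed to 25.7 to 27.8 CPM in WT and 36.3 to 40.2 in GS-KO at BFU-E and to 3.37 to 3.85 and 11.5 to 15.03 at CFU-E, were also higher in GS-KO without overlap at ERY-I-II, and overlapped in the last 2 gates. Mast and basophil markers were higher in GS-KO without overlap in all 5 gates, with 9.38 to 12.7 CPM in WT and 19.6 to 20.1 in GS-KO at BFU-E, 0.480 to 1.20 and 9.24 to 11.7 at CFU-E, and 0 and 5.02 to 5.61 at ERY-V-VI. The part of these cells in the lower Epor was not tested.

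The 4 erythroid markers did not follow Epor in the earlier gates. They summed to 306 to 313 CPM in WT and 616 to 647 CPM in GS-KO at BFU-E, to 508 to 511 and 702 to 733 CPM at CFU-E, and to 9512 to 9568 and 14106 to 14162 CPM at ERY-I-II. In the later gates the order was turned, with 24042 to 24348 CPM in WT and 21118 to 21342 CPM in GS-KO at ERY-III-VI and 41733 to 42703 and 22294 to 22656 CPM at ERY-V-VI. Per 1000 erythroid marker reads, Epor had 187 ± 3.52 reads in WT and 49.5 ± 2.08 in GS-KO at BFU-E, and 7.58 ± 0.447 and 4.08 ± 0.281 at ERY-III-VI (SD, n = 3). At ERY-V-VI it had 2.42 ± 0.292 in WT and 3.16 ± 0.236 in GS-KO, the only gate in which this ratio was higher in GS-KO. Set against Jak2, a gene outside that list, Epor was lower in all 5: it had 0.251 reads per Jak2 read in WT and 0.141 in GS-KO at BFU-E, 0.448 and 0.243 at CFU-E, 0.437 and 0.280 at ERY-I-II, 0.572 and 0.305 at ERY-III-VI and 0.614 and 0.282 at ERY-V-VI. Jak2 itself had a higher mean CPM in GS-KO at ERY-V-VI (252.5 against 167.2 in WT) and a lower one in the other gates. The ratio at ERY-V-VI thus reflects both genes.

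Of the genes on either side of Epor, 1 had enough counts to compare. Swsap1, on the plus strand 632 bases from the end of Epor, had means of 6.72 and 8.41 CPM in WT and GS-KO at BFU-E, 4.84 and 8.11 at CFU-E and 5.15 and 8.29 at ERY-III-VI, and its mean CPM was higher in GS-KO in all 5 gates. On the TMM scale its log2 fold change was above 0 in the first 4 gates, where edgeR called it at CFU-E alone (0.74 ± 0.17), and -0.66 ± 0.63 at ERY-V-VI, where it did not pass. Rgl3, on the minus strand 5204 bases upstream, had 0 to 3 counts in every library of the knockout series, too few to compare. A widely used erythroid Cre line carries the recombinase inserted at the Epor locus, which interrupts that copy of the gene. The sources used here do not give the recombinase line of these mice, and its part in the lower Epor was not tested.

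Of the pathway list, 17 of 47 tested members rose and 4 fell in GS-KO BFU-E, beside 15.4% and 8.59% of all 11356 genes (median 0.10 against -0.01). At CFU-E 19 of 46 rose and 8 fell, beside 17.9% and 11.5% of 10859 (median 0.12 against 0.00). At ERY-I-II 18 of 41 rose and 7 fell, beside 22.9% and 17.5% of 9954 (median 0.17 against -0.01); by library totals 14 rose and 11 fell. At ERY-III-VI 21 of 44 rose and 11 fell, beside 31.4% and 24.5% of 9981 (median 0.42 against 0.05); by library totals 23 rose and 5 fell. At ERY-V-VI 14 of 41 rose and 12 fell, beside 22.4% and 20.5% of 9403 (median 0.09 against 0.15); by library totals 33 rose and 2 fell.

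Among the receptor's partners, Jak2 fell by 0.19 ± 0.04 at CFU-E and by 0.33 ± 0.04 at ERY-III-VI, and did not pass at BFU-E (-0.05 ± 0.04) or ERY-I-II (0.01 ± 0.04). At ERY-V-VI it fell by 0.69 ± 0.09 by TMM, while its CPM was 167 ± 20.6 in WT and 252 ± 5.43 in GS-KO (SD, n = 3), higher in GS-KO. Tfr2 fell by 0.13 ± 0.04 at BFU-E and by 0.34 ± 0.07 at ERY-I-II. Csf2rb, a receptor chain of myeloid cells, was the largest rise among the partners at BFU-E (5.55 ± 0.25), ERY-I-II (4.8 ± 0.33) and ERY-V-VI (2.86 ± 0.42), and its relative Csf2rb2 at CFU-E (7.77 ± 0.85) and ERY-III-VI (5.88 ± 0.83). These rises ran beside the neutrophil markers, whose part in them was not tested.

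Among the relays, Stat5a fell by 0.11 ± 0.04 at BFU-E, by 0.11 ± 0.04 at CFU-E and by 0.36 ± 0.11 at ERY-I-II, and rose by 1.30 ± 0.21 at ERY-III-VI. Stat5b, the largest fall among the relays at BFU-E, fell there by 0.17 ± 0.03, and rose by 0.45 ± 0.11 at ERY-III-VI and 0.92 ± 0.28 at ERY-V-VI. The largest rises of a relay were Lyn at BFU-E (0.42 ± 0.06) and ERY-V-VI (3.35 ± 0.41), Stat3 at CFU-E (0.94 ± 0.08) and Vav1 at ERY-I-II (3.97 ± 0.20) and ERY-III-VI (4.43 ± 0.19). All 3 are expressed in myeloid cells. Neutrophil markers were higher in GS-KO in every gate, and their part in the rises of the relays, Stat5a and Stat5b among them, was not tested. The largest falls were Gab1, a docking protein, at CFU-E (-0.41 ± 0.08) and ERY-I-II (-0.44 ± 0.08), and Irs2, another, at ERY-III-VI (-0.78 ± 0.09) and ERY-V-VI (-1.11 ± 0.15 by TMM, with a higher mean CPM in GS-KO, 52.1 against 45.9).

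Among the brakes, Cish rose by 0.63 ± 0.19 at BFU-E and by 1.19 ± 0.44 at CFU-E, where its means were 0.789 ± 0.547 CPM in WT and 1.85 ± 0.392 in GS-KO (SD, n = 3). Sh2b3, an adaptor that restrains JAK2, rose by 0.66 ± 0.12 at BFU-E, 0.27 ± 0.10 at CFU-E, 1.01 ± 0.21 at ERY-III-VI and 1.02 ± 0.36 at ERY-V-VI. The largest rise of a brake was Cbl, a ubiquitin ligase, at ERY-I-II (1.06 ± 0.10) and Ptpn6 at ERY-III-VI (2.87 ± 0.12) and ERY-V-VI (2.55 ± 0.24). Ptpn6 is also expressed by myeloid cells. The part of the higher neutrophil markers of GS-KO libraries in the rises of the brakes was not tested. Dok1, an adaptor, was the only brake that fell, at ERY-III-VI (-0.33 ± 0.11) and ERY-V-VI (-1.13 ± 0.25 by TMM, with a higher mean CPM in GS-KO, 30.9 against 27.9). Socs3, a further feedback inhibitor, passed the filter on low counts in no GS-KO comparison.

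Among the targets, Bcl2l1 rose in the first 3 gates, by 1.78 ± 0.14 at BFU-E, 1.37 ± 0.12 at CFU-E and 1.69 ± 0.04 at ERY-I-II, and fell by 2.78 ± 0.03 at ERY-V-VI (log2, SE). Its CPM was 7.13 ± 0.438 in WT and 24.3 ± 1.28 in GS-KO at BFU-E, and 3272 ± 86.4 and 1168 ± 24 at ERY-V-VI (SD, n = 3). Pim1 rose by 0.59 ± 0.11, 0.47 ± 0.10 and 0.98 ± 0.06 in the same 3 gates and fell by 0.32 ± 0.04 at ERY-III-VI and by 1.96 ± 0.07 at ERY-V-VI. So Bcl2l1 and Pim1 were higher in GS-KO libraries in the 3 earlier gates and lower at ERY-V-VI, while Epor was lower in all 5 gates. Neutrophil and erythroid markers were also higher in GS-KO in those 3 gates, and their part in these rises was not tested.

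Tfrc rose by 0.28 ± 0.03 at BFU-E and fell by 0.18 ± 0.02 at CFU-E and by 0.34 ± 0.02 at ERY-III-VI, where it was the largest fall of a target. At ERY-V-VI it fell by 0.90 ± 0.03 by TMM, although its CPM was higher in GS-KO (2629 ± 58.8 against 1994 ± 59.8, SD, n = 3), and at ERY-I-II it rose by 0.10 ± 0.02 by TMM with overlapping CPM. Fam132b fell by 2.62 ± 0.76 at ERY-V-VI and did not pass elsewhere. Osm did not pass where it was tested, at BFU-E (0.31 ± 0.25) and CFU-E (-0.16 ± 0.26). The other extremes among the targets were Serpina3g, a serpin, at CFU-E (4.76 ± 0.51), Ccnd2, cyclin D2, at ERY-I-II (3.24 ± 0.26) and ERY-V-VI (2.34 ± 0.46), and Id1, an inhibitor of helix-loop-helix factors, at ERY-III-VI (6.71 ± 1.18). The part of the higher neutrophil markers of GS-KO libraries in the rises of Serpina3g, Ccnd2 and Id1 was not tested. Gdf3 fell at BFU-E (-0.49 ± 0.14) and CFU-E (-0.43 ± 0.12), and Bcl2l11, a pro-death member of the BCL2 family, at ERY-I-II (-0.26 ± 0.08).

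In each gate the largest fall among the 7 erythroid factors in GS-KO was smaller than that of Epor, a difference given with no test. Of the 7, 4 fell at BFU-E and at CFU-E, 2 rose and 2 fell at ERY-I-II, all 7 fell at ERY-III-VI and 5 fell at ERY-V-VI by TMM, of which Gata1, Tal1, Klf1 and Zfpm1 had a higher mean CPM in GS-KO. Of all genes tested 8.59%, 11.5%, 17.5%, 24.5% and 20.5% fell in these gates, and 22.9% rose at ERY-I-II. The median log2 fold changes of the 7 were -0.14, -0.09, 0.03, -0.48 and -0.49 in the same order. Gata1 fell in all 5 gates, by 0.21 ± 0.04 at BFU-E, 0.10 ± 0.03 at CFU-E, 0.11 ± 0.04 at ERY-I-II, 0.53 ± 0.04 at ERY-III-VI and 0.49 ± 0.11 at ERY-V-VI, where its CPM was higher in GS-KO (156 ± 3.37 against 88.6 ± 13.3, SD, n = 3). Klf1 fell by 0.14 ± 0.04 at BFU-E, 0.11 ± 0.03 at CFU-E, 0.50 ± 0.03 at ERY-III-VI and 0.49 ± 0.07 at ERY-V-VI, the last with a higher CPM in GS-KO (352 ± 22 against 201 ± 13.4). Tal1 fell by 0.09 ± 0.03 at CFU-E, 0.48 ± 0.03 at ERY-III-VI and, with a higher CPM, 0.70 ± 0.05 at ERY-V-VI, and rose by 0.16 ± 0.03 at ERY-I-II. The largest falls were Gata1 at BFU-E, Zfpm1 at CFU-E (-0.17 ± 0.03) and ERY-III-VI (-0.62 ± 0.03), Ldb1 at ERY-I-II (-0.26 ± 0.05) and Lmo2 at ERY-V-VI (-1.53 ± 0.06).

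**Figure D4:**
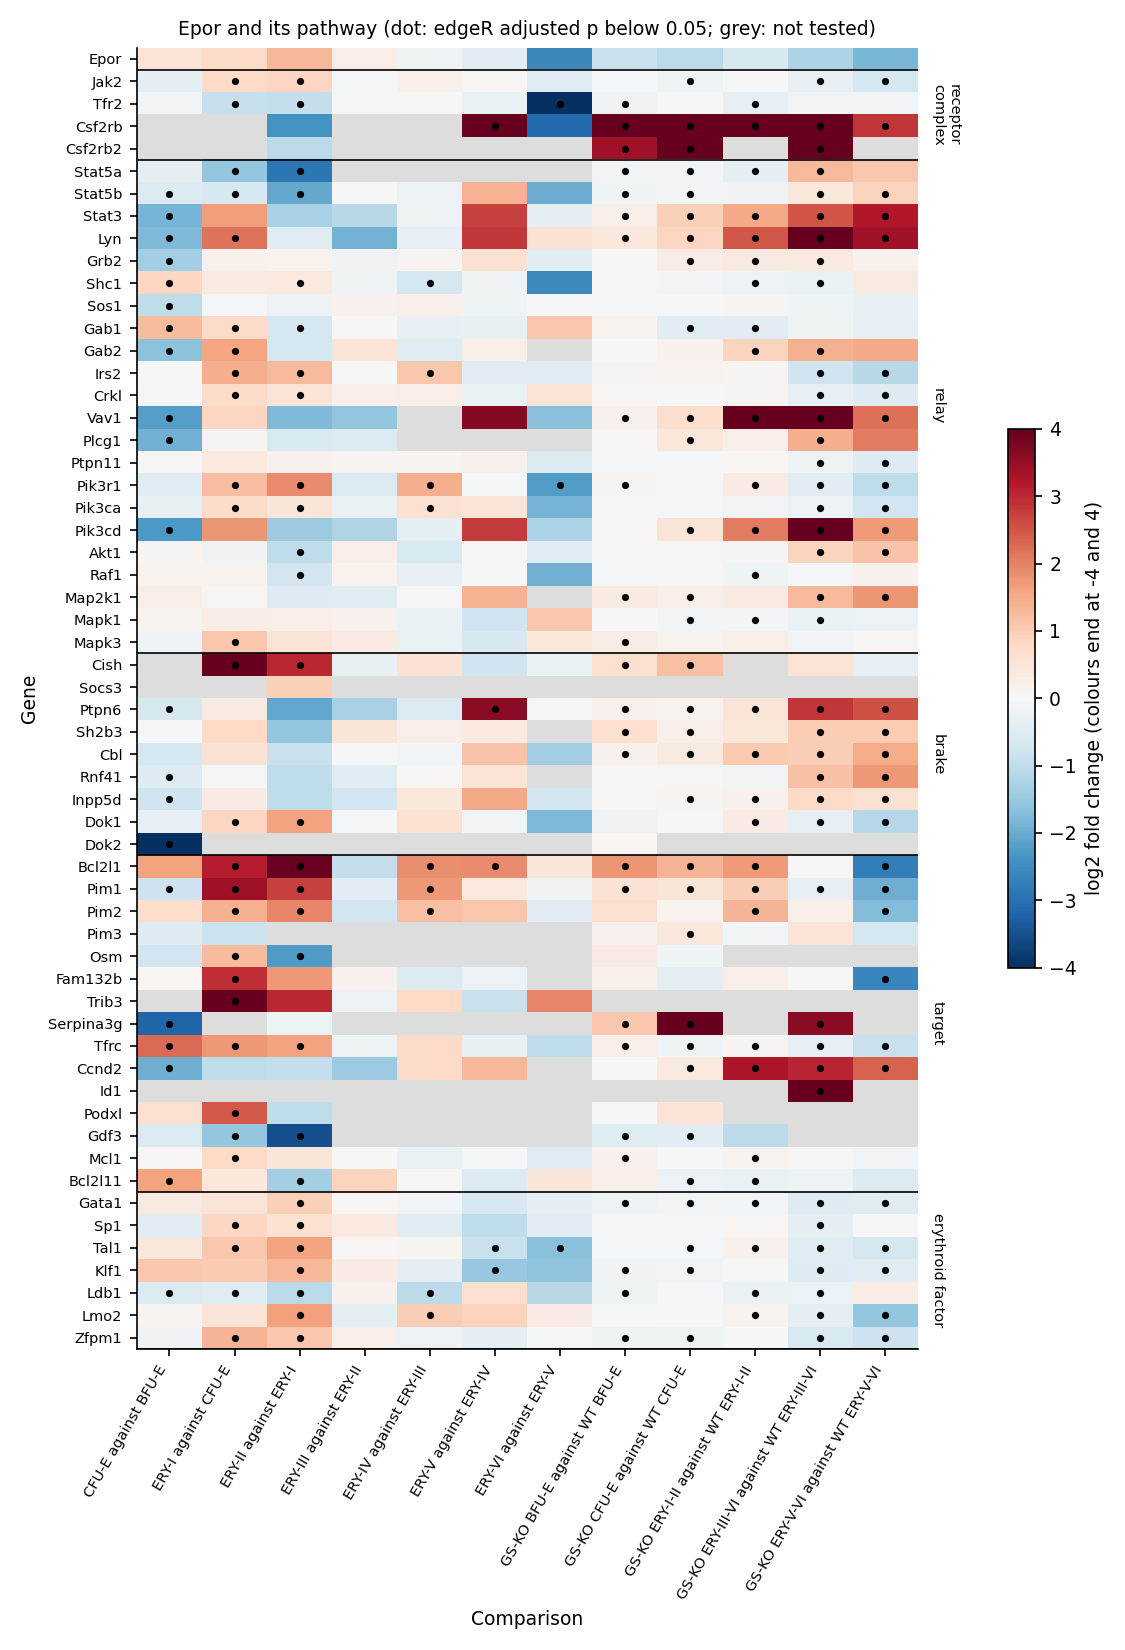
Log2 fold changes (TMM scale) of Epor and of the pathway genes and erythroid factors tested at least once, in the 7 stage comparisons and 5 GS-KO comparisons; dots mark genes called by edgeR and grey cells were not tested. Epor, with no test and so no dot, is below 0 in all 5 GS-KO columns. Bcl2l1 and Pim1 are above 0 in the first 3 of them and below 0 at ERY-V-VI.

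The genes whose group means followed Epor most closely over the 8 stages and the 10 groups of the knockout series were Tmem33, 8430419L09Rik, Iba57, Piga, Cnnm2, Ube2e3, Ublcp1 and Asb6, out of 8306 with a mean of at least 5 CPM in each series. The measure was the lower of 2 Pearson correlations of mean log2(CPM + 1), and it ran from 0.84 to 0.89 for these 8. The group means share libraries and depth, and none of the 8306 reached 0.9 in both series. Tmem33, the closest, had 0.96 over the stages and 0.89 over the 10 groups, but its mean at BFU-E was 63.8 CPM in WT and 64.5 in GS-KO, where Epor was at 57.8 and 31.1. Ranked by Spearman correlation 0 of these 8 were among the closest 8, so the likeness is loose.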

How the data were processed

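The authors deposited 2 tables of raw read counts, and these counts were used unchanged. Alignment was with STAR 2.5.2b against mm10 and counting with HTSeq, per the submitters' processing notes. The kit was a stranded one, per the labels' protocols; annotation and strand setting of the counting were not given in the sources used here. All columns were matched to a sample by title, and 0 were left unmatched.

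Each of 12 comparisons (7 neighbouring stages, GS-KO against WT in 5 gates) had its own fit in edgeR 4.0.16 (R 4.3.3), with filterByExpr at its defaults (count 10, total 15), scaling by TMM, a quasi-likelihood F test and adjusted p by Benjamini-Hochberg at 0.05. CPM uses library totals. DESeq2 1.42.0, other scalings, filters, a replicate block, sets of libraries and leaving out each library were alternatives. The fits were tested on simulated data.

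Epor, the gene lists and the named genes were chosen with earlier results of these data known. Named genes are Epor, Glul, the genes on either side of Epor, 14 pathway genes and erythroid factors, the called member with the largest rise and fall for each role and comparison, and the 8 genes most like Epor. Some genes of the marker and pathway lists are not reported here and entered no sum, count or median of these lists. Replicates are libraries of 1 group, and nothing says they came from separate mice. SD, SE and p-values thus reflect library spread alone, which may be technical. The chi-square per gene between libraries of a group was 1.29 to 6.25 in the knockout series and up to 228 in the stage series. Among the 3 libraries with Y-linked transcripts it was 2.63 to 3.16 at BFU-E and 1.44 to 1.68 at CFU-E. It was 2.47 to 3.09 at ERY-I and 8.35 to 8.58 at ERY-V. Between these and the libraries with Xist it was 95.6 to 119 at CFU-E, 72.1 to 170 at ERY-I and 75.4 to 228 at ERY-V. Each set of 3 may come from 1 sample, so n counts libraries. Same-numbered libraries all deviated together in ERY-I against CFU-E (lowest correlation 0.32), ERY-III against ERY-II (0.60) and ERY-IV against ERY-III (0.33). In the other 9 comparisons the lowest correlation was at most 0.004. Some pairs there still went together: correlations ran from -0.64 to 0.73 in ERY-II against ERY-I. They ran from -0.24 to 0.28 in ERY-V against ERY-IV, where 3 of 4 libraries matched their own number best.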

Additional observations from a re-analysis of the deposited data

Results flagged for a closer look

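For 6 genes the libraries of 1 gate all moved one way between WT and GS-KO and those of another gate all moved the opposite way on the TMM scale. These differences between gates were not tested. The log2 fold changes of Stat5a were -0.11 at BFU-E, -0.11 at CFU-E, -0.36 at ERY-I-II, 1.30 at ERY-III-VI and 1.07 at ERY-V-VI. Those of Stat5b were -0.17 at BFU-E, -0.10 at CFU-E, 0.45 at ERY-III-VI and 0.92 at ERY-V-VI. Bcl2l1 had 1.78 at BFU-E, 1.37 at CFU-E, 1.69 at ERY-I-II and -2.78 at ERY-V-VI. Pim1 had 0.59 at BFU-E, 0.47 at CFU-E, 0.98 at ERY-I-II, -0.32 at ERY-III-VI and -1.96 at ERY-V-VI. Tfrc had 0.28 at BFU-E, -0.18 at CFU-E, 0.10 at ERY-I-II, -0.34 at ERY-III-VI and -0.90 at ERY-V-VI. Tal1 had -0.090 at CFU-E, 0.16 at ERY-I-II, -0.48 at ERY-III-VI and -0.70 at ERY-V-VI. By library totals Tfrc and Tal1 were higher in GS-KO at ERY-V-VI. No Epor value of a group of 4 to 10 libraries stood apart from the rest of its group.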

How the results depend on the processing

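Of 194 alternative values for the log2 fold change of Epor 186 moved by less than the SD between replicates, and none changed sign. For ERY-VI against ERY-V that SD was 2.03. There -4.17 by library totals and -3.18 with a replicate block counted as unmoved beside -2.59. For ERY-I against CFU-E the SD was 0.47, and 0.38 with the block counted as unmoved beside 0.75. The values that moved follow. Library totals gave 0.056 for ERY-II against ERY-I, -0.73 for ERY-IV against ERY-III, -1.28 for ERY-V against ERY-IV and, for GS-KO against WT, -0.75 at ERY-I-II, -1.08 at ERY-III-VI and -0.52 at ERY-V-VI. Libraries with Y-linked transcripts alone gave 0.063 for ERY-I against CFU-E, and a replicate block 1.83 for ERY-II against ERY-I. The block there set ERY-I libraries with Y-linked transcripts beside same-numbered ERY-II libraries with Xist, so it is not a matched estimate.

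Counts of called pathway genes moved more. For CFU-E against BFU-E (20) the replicate block gave 32, libraries with Y-linked transcripts alone 33 and summed triplicates, which leave BFU-E with 1 sample, 0. For ERY-I against CFU-E (24) libraries with Y-linked transcripts alone gave 45 and summed triplicates 14. For ERY-III against ERY-II (0) DESeq2 gave 1 and the block 6, and for ERY-IV against ERY-III (7) library totals gave 3. For ERY-V against ERY-IV (3) DESeq2 gave 8, DESeq2's size factors in edgeR 5, no filter on low counts 7, the block 11, libraries with Xist alone 1 and summed triplicates 1. For ERY-VI against ERY-V (2) library totals gave 17, a filter at a mean of 5 CPM 1, libraries with Xist alone 1 and summed triplicates 1. Summing triplicates was chosen after seeing the data. The cause was not tested in any other case. The block moved no other count by over 1.5 times.

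Leaving out each library gave 13 to 21 for CFU-E against BFU-E (13 without BFU-E replicate 2), 2 to 6 for ERY-IV against ERY-III (2 without ERY-III replicate 1 or 2), 0 to 8 for ERY-V against ERY-IV (0 without ERY-IV replicate 1, 8 without ERY-V replicate 7) and 1 to 2 for ERY-VI against ERY-V; no Epor value moved by more than the SD between replicates. By library totals all genes called higher and lower numbered 1438 and 2389 for CFU-E against BFU-E (1964 and 2067 by TMM), 1690 and 3475 for ERY-I against CFU-E (2660 and 2190), 423 and 6998 for ERY-II against ERY-I (2091 and 2588), 156 and 478 for ERY-IV against ERY-III (749 and 238), 53 and 358 for ERY-V against ERY-IV (454 and 163), and 7 and 2212 for ERY-VI against ERY-V (167 and 227). For GS-KO they numbered 1792 and 3179 at ERY-I-II (2278 and 1739), 3957 and 1339 at ERY-III-VI (3132 and 2444), and 7219 and 361 at ERY-V-VI (2110 and 1924). With 0 to 11 Epor counts in the ERY-VI libraries and 26 in the lowest of ERY-V, levels there are known only roughly.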
